A study of Mus musculus with 24 samples.

Results

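Potassium channel genes were described in cultures of mouse oligodendrocytes, the myelin-forming glia of the central nervous system, with and without ethanol. Members were all genes whose mouse symbol began with Kcn, letters and a number, and whose mean raw count over 24 wells was at least 5. Antisense and opposite-strand transcripts were left out. Of 55359 genes in the count table, 98 symbols matched the pattern, 5 of them were left out as antisense or opposite-strand transcripts, and 53 of the other 93 passed the count minimum. By symbol, 19 members were pore subunits of voltage-gated channels, 8 of inward rectifiers, 8 of tandem-pore (K2P) channels and 7 of calcium- or sodium-activated channels, and 11 were auxiliary subunits. The members just inside the minimum were Kcnd1 and Kcnk4, with mean counts of 5.17 and 5.13, and the genes just outside were Kcnc2 and Kcna7, with 4.63 and 4.54. Of the 40 genes under the minimum, 21 were voltage-gated, 7 were inward rectifiers, 6 were tandem-pore channels and 5 were auxiliary subunits. The other 1 was placed by symbol in the calcium- or sodium-activated class, and 19 of the 40 had a mean count under 1.

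The cells came from the cortex of C57Bl6J pups on postnatal days 5 to 7 and were picked with magnetic beads against O4, an antigen on the surface of immature cells of this lineage. They were differentiated for 3 days, mainly with the thyroid hormone triiodothyronine, and then held for 3 days with 30 mM ethanol or none (experiment 1, 6 wells each) or with 10 mM ethanol or none (experiment 2, 6 wells each). The labels give each experiment as a batch of its own, and control plates stood in an incubator separate from the ethanol plates. Ethanol and incubator therefore cannot be told apart within an experiment, and dose, experiment and batch cannot be told apart between experiments. The labels call the wells biological replicates but do not say whether they came from separate litters or cultures. The p-values therefore set each change against the spread between these wells, and may not extend to other litters or cultures.

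Potassium channels set the resting membrane potential and return it to rest after depolarisation. In glia, inward rectifiers and tandem-pore channels carry most of the resting conductance, and the inward rectifier Kir4.1, the product of Kcnj10, takes up potassium released by active axons. Voltage-gated potassium currents are prominent in oligodendrocyte precursors and decline as the cells mature. Auxiliary subunits alter the gating, trafficking and surface level of the pore subunits to which they bind.

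The libraries held between 1184609 and 1817028 counts each, and the members together took between 1823 and 2832 counts in a well. A floor of 3 counts corresponded to between 1.70 and 2.53 CPM (the count as a share of the library's total, scaled up to a common size), which covers counting error only. CPM were scaled by TMM factors, which correct for library composition, and 3′ tags do not scale with transcript length, so levels were compared between genes. Mature oligodendrocyte markers (10 genes, none at 0 in any group) summed to between 6640 and 8368 CPM in experiment 1 controls and between 8290 and 14979 CPM with 30 mM ethanol, where replicate 1 held the highest sum. They summed to between 6087 and 8004 CPM in experiment 2 controls and between 7370 and 8413 CPM with 10 mM ethanol. Astrocyte markers (10 genes, none at 0) were also high, at between 4067 and 5177 CPM in experiment 1 controls, 5562 and 7165 CPM with 30 mM, 4566 and 4863 CPM in experiment 2 controls, and 4545 and 5204 CPM with 10 mM. Fewer cells of a type and less RNA per cell cannot be told apart in such bulk samples.

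Kcnj10 was the most abundant potassium channel transcript among the members. Its mean over 24 wells was 322.6 CPM, followed by the voltage-gated Kcna1 at 134 CPM and Kcna6 at 110 CPM, the tandem-pore Kcnk1 at 102 CPM, and the voltage-gated Kcnc1 and Kcna2 at 83.4 and 67.0 CPM. Kcnd3, a pore subunit of A-type channels, and the auxiliary subunit Kcne1l lay next to each other at 56.4 and 56.3 CPM. These 8 members reached 50 CPM, 29 reached 10 CPM, and the median member had 11.6 CPM. The highest calcium-activated member was Kcnma1, the pore subunit of the BK channel, at 22.1 CPM, and the lowest member was Kcnk4 at 3.63 CPM.

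**Figure D1:**
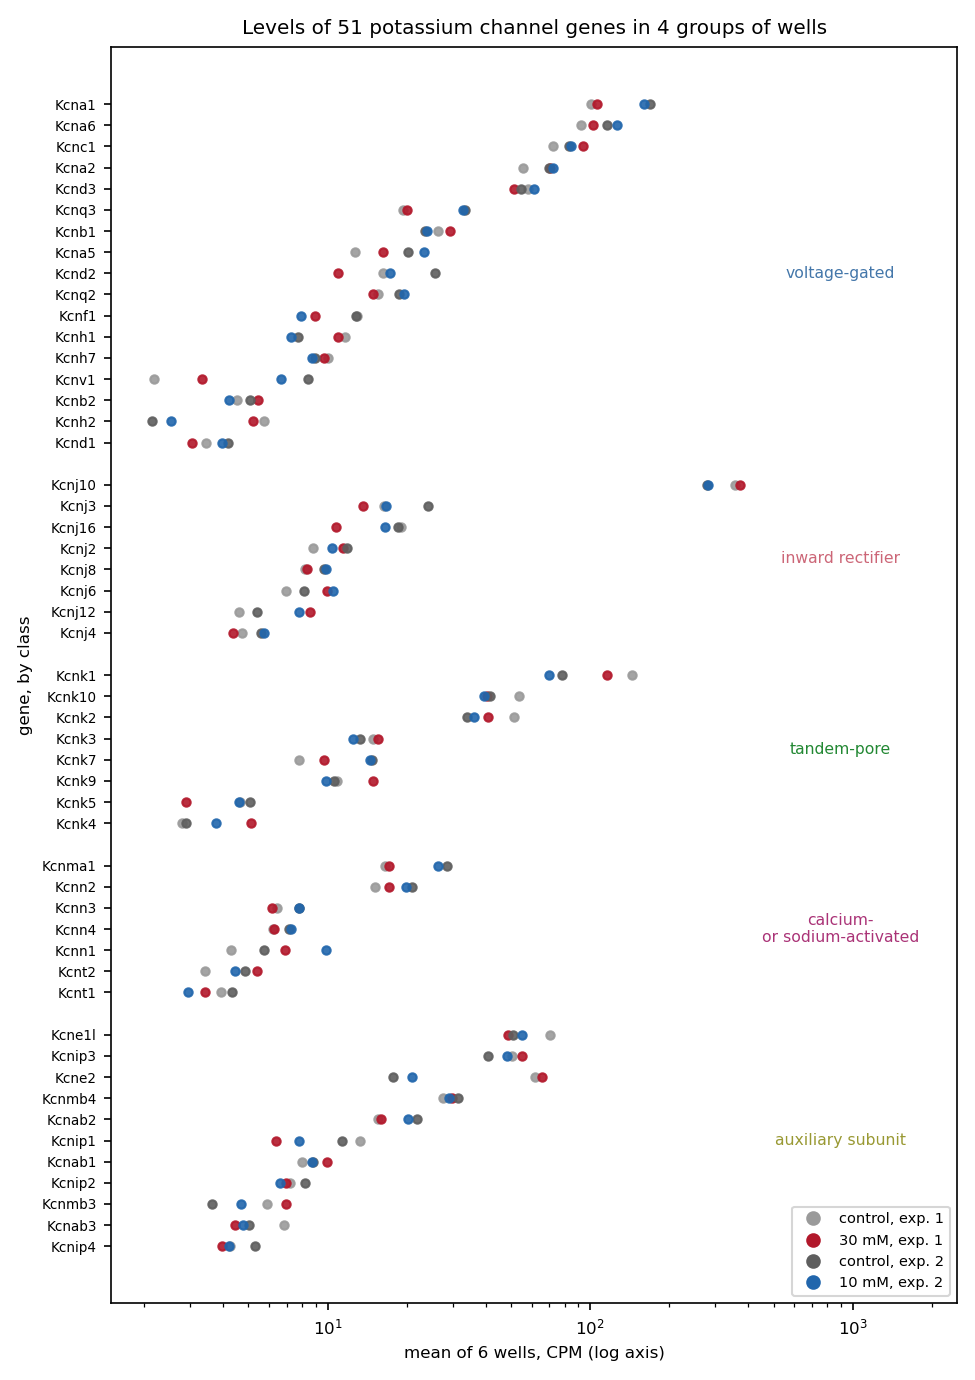
Mean level of 51 potassium channel members in each group of 6 wells, in CPM on a log axis (horizontal), with 1 line a gene, ordered by channel class, and 1 coloured point a group. Kcnj10 stands to the right of all others in every group, and for members such as Kcne2, Kcna1 and Kcnk1 the 2 groups of an experiment lie close together and apart from those of the other experiment.

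Summed over the members, potassium channel transcripts held nearly the same level in the 4 groups. The sum was 1608 ± 80.8 CPM with 30 mM ethanol and 1599 ± 81.4 CPM in its controls, and 1553 ± 27.8 CPM with 10 mM and 1563 ± 58.7 CPM in its controls (SD, n = 6 wells each). In each class, the mean sum differed more between the control groups of the experiments than between ethanol and control wells of an experiment. Voltage-gated members summed to 606 ± 66.4 CPM with 30 mM and 555 ± 43.0 CPM in its controls, and to 714 ± 24.9 and 717 ± 31.1 CPM with 10 mM and in its controls (SD, n = 6). Tandem-pore members summed to 246 ± 21.2 CPM with 30 mM against 291 ± 19.7 CPM, and to 191 ± 6.22 CPM with 10 mM against 201 ± 7.47 CPM. Kcnj10 alone made up 23.2% ± 1.26 and 22.3% ± 1.52 of the summed member level with 30 mM and in its controls, and 18.1% ± 0.772 and 17.8% ± 1.14 with 10 mM and in its controls (SD, n = 6).

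RefSeq promoters (build GRCm38.p6, 250 bases before each annotated start) were found for 39 of the 53 members, as 58 windows. The 6 letters GGGCGG (the GC box), read on both strands, occurred in 44.8% of the member windows and in 42.6% of the 21263 windows of protein-coding genes. TATAAA occurred in 1.72% of the member windows (1 of 58) and in 11.6% of the protein-coding windows. CACGTG, the E-box, occurred in 6.90% and 6.63%, and ACAAAG in 10.3% and 14.9%, in the same order. These are matches of letters in a window and were not tested as sites. The windows below are those of members whose 30 mM wells did not overlap their controls, and of Kcnj10, the most abundant member. Only starts with a matching GENCODE M21 transcript start and no annotated exon in the window were used, which left out Kcna2. Capitals mark GGGCGG or its reverse complement.
Kcnc1: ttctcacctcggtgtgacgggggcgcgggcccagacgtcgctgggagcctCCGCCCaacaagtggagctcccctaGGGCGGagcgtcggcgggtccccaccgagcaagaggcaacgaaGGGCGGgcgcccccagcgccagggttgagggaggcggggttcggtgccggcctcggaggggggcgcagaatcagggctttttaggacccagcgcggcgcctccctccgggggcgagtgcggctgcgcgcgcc
Kcnj16: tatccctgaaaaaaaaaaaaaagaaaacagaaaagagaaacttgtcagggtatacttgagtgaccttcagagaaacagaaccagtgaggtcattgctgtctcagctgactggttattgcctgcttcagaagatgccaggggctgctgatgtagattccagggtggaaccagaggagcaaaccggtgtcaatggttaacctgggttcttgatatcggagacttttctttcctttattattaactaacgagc
Kcnip1: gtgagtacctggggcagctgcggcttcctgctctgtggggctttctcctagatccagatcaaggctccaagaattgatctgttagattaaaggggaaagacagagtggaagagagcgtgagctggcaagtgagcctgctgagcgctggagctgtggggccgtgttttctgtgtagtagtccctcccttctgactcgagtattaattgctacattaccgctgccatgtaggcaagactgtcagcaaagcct
Kcnj10: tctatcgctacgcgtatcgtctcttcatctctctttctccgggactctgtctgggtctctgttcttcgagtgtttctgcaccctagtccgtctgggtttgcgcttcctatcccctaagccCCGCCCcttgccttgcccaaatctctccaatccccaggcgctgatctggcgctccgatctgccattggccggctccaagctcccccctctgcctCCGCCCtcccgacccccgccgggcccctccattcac
The Kcnc1 window (chr7:46396218-46396467, plus strand) was 74.4% G and C and held 3 GC boxes. The Kcnj10 window (chr1:172340960-172341209, plus strand) was 62% G and C and held 2. The Kcnj16 window (chr11:110967783-110968032, plus strand, 42.8% G and C) and the Kcnip1 window (chr11:33993194-33993443, minus strand, 52.8% G and C) held none, and none of the 4 windows held the other 3 motifs.

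With 30 mM ethanol, 2 voltage-gated pore subunits rose and 5 members fell, namely 2 tandem-pore channels, the inward rectifier Kcnj16 and the auxiliary subunits Kcne1l and Kcnip1. Each change was an adjusted p under 0.05 in edgeR's quasi-likelihood test over all 13235 genes that passed a filter on low counts. That filter passed 38 members, so 7 of 38 (18.4%) were called, where 9.67% of all genes tested were called, 3.02% higher and 6.65% lower. By class, 2 of 14 voltage-gated members tested rose and none fell, 2 of 6 tandem-pore members fell, 1 of 6 inward rectifiers fell, 2 of 9 auxiliary subunits fell, and none of 3 calcium-activated members was called. The median log2 fold change of the 38 was 0.11, against 0.02 over all genes tested, and 11 of the 38 had an unadjusted p under 0.05, as did 23.5% of all genes tested.

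Among voltage-gated members, Kcnc1 (ENSMUSG00000058975), which encodes a pore subunit of fast delayed rectifier channels, ranged from 83.3 to 111.5 CPM with 30 mM ethanol (median 88.6) and from 60.7 to 83.1 CPM in its controls (median 71.8). Every ethanol well lay above every control well, although the nearest wells were close. Its log2 fold change was 0.42 (SE 0.0931, adjusted p = 0.00165, edgeR, n = 6 wells each). With 10 mM, Kcnc1 ranged from 68.9 to 103.2 CPM (median 86.3) against 71.6 to 97.4 CPM (median 79.1), and the groups overlapped throughout. That change was 0.02 (SE 0.0889, adjusted p = 0.968, edgeR), and the difference between the doses was 0.39 (SE 0.135, adjusted p = 0.0901, edgeR).

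Kcna2 (ENSMUSG00000040724), a pore subunit of Shaker-related delayed rectifiers, ranged from 62.8 to 89.0 CPM with 30 mM (median 66.7) and from 48.2 to 62.6 CPM in its controls (median 55.9). The groups did not overlap, and 1 ethanol well, replicate 1, stood well above the other 5. The log2 fold change was 0.38 (SE 0.101, adjusted p = 0.00921, edgeR), and 0.31 without that well. With 10 mM, Kcna2 ranged from 62.8 to 81.9 CPM (median 71.6) against 55.3 to 79.0 CPM (median 70.6), with overlapping groups and a change of 0.02 (SE 0.0912, adjusted p = 0.967, edgeR). Kcna1 (ENSMUSG00000047976), its close relative and the most abundant voltage-gated member, ranged from 86.6 to 153.8 CPM with 30 mM (median 97.1) and from 85.5 to 118.0 CPM in its controls (median 99.8). The same replicate 1 held the highest Kcna1 value, and the change was 0.13 (SE 0.0994, adjusted p = 0.440, edgeR), or 0.0039 without that well. That well also held the highest sum of mature oligodendrocyte markers, and the part of this in the Kcna1 and Kcna2 values was not tested.

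**Figure D2:**
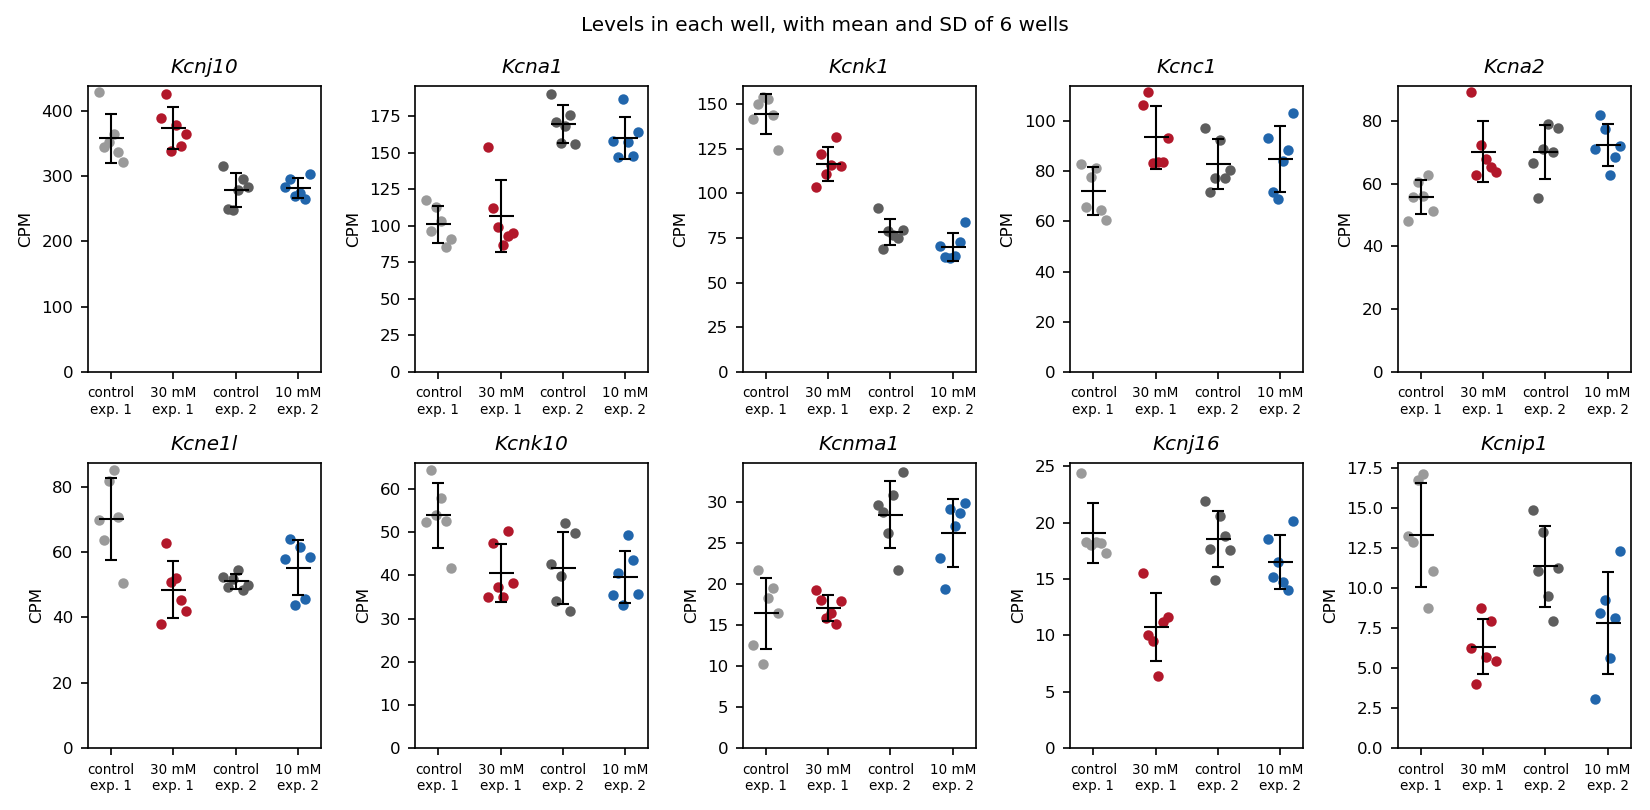
Level of the 10 members described in full in every well, in CPM, with 1 panel a gene, points for wells and bars for the mean and SD of the 6 wells of each group. Kcnc1 and Kcna2 lie above their controls with 30 mM ethanol, Kcnj16 and Kcnip1 lie below theirs, and no member separates from its controls with 10 mM.

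Among inward rectifiers, Kcnj16 (ENSMUSG00000051497) encodes Kir5.1, which joins the Kcnj10 product in channels that are sensitive to pH. It ranged from 6.44 to 15.6 CPM with 30 mM ethanol (median 10.6) and from 17.3 to 24.4 CPM in its controls (median 18.2). Every ethanol well was below every control well. This gave a log2 fold change of -0.77 (SE 0.206, adjusted p = 0.0108, edgeR), on a mean raw count of 23.3. With 10 mM, Kcnj16 ranged from 14.0 to 20.1 CPM (median 15.9) against 14.9 to 21.9 CPM (median 18.3). Those groups overlapped, with a change of -0.19 (SE 0.168, adjusted p = 0.772, edgeR), and the difference between the doses was -0.59 (adjusted p = 0.209, edgeR).

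Kcnj10 (ENSMUSG00000044708) did not pass the test at either dose. It ranged from 338.8 to 425.3 CPM with 30 mM (median 370.6) and from 320.7 to 428.6 CPM in its controls (median 347.9), so that the ethanol wells lay within the control range. The log2 fold change was 0.11 (SE 0.0654, adjusted p = 0.308, edgeR). With 10 mM, it ranged from 265.1 to 302.6 CPM (median 278.6) against 247.7 to 314.9 CPM (median 280.8), with a change of -0.0048 (SE 0.0605, adjusted p = 0.990, edgeR). Expressed per 100 Kcnj10 counts, Kcnj16 stood between 1.70 and 4.00 with 30 mM (median 3.01) and between 5.02 and 5.70 in its controls (median 5.36). With 10 mM it stood between 5.16 and 6.65 (median 5.76), against between 6.02 and 7.37 in its controls (median 6.68). The ratio thus separated the wells of experiment 1 and overlapped in experiment 2.

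Among tandem-pore members, Kcnk1 (ENSMUSG00000033998), a background channel also known as TWIK, ranged from 103.4 to 131.5 CPM with 30 mM (median 115.5) and from 124.5 to 154.4 CPM in its controls (median 147.0). The ethanol wells were lower with some overlap. Its change was -0.27 (SE 0.0783, adjusted p = 0.0216, edgeR), and the call was lost in 4 of 12 fits that left out 1 well, those without 30 mM replicates 1 or 3 or control replicates 3 or 4 (adjusted p up to 0.0621, edgeR). With 10 mM, Kcnk1 ranged from 63.6 to 83.8 CPM (median 67.7) against 68.6 to 91.6 CPM (median 77.7), again with overlap. That change was -0.19 (SE 0.0886, adjusted p = 0.467, edgeR), and the difference between the doses was -0.09 (adjusted p = 0.729, edgeR). Exons of Kcnk1 share bases with Gm45875 in GENCODE M21, so its counts are uncertain where strand was not used.

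Kcnk10 (ENSMUSG00000033854), a TREK channel gated by stretch and lipids, ranged from 34.9 to 50.2 CPM with 30 mM (median 37.7) and from 41.8 to 64.4 CPM in its controls (median 53.3). The ranges overlapped, with the ethanol median below every control well. The log2 fold change was -0.37 (SE 0.117, adjusted p = 0.0345, edgeR), but the call was lost with upper-quartile scaling (adjusted p = 0.0600, edgeR), with DESeq2 (adjusted p = 0.0798) and in 7 of 12 fits without 1 well (30 mM replicates 1, 3, 4 or 6 or control replicates 2, 3 or 4, adjusted p up to 0.101, edgeR). With 10 mM, Kcnk10 ranged from 33.1 to 49.2 CPM (median 38.1) against 31.8 to 52.2 CPM (median 41.2), and the change was -0.08 (SE 0.12, adjusted p = 0.880, edgeR). Its relative Kcnk2 had a log2 fold change of -0.29 with 30 mM (adjusted p = 0.126, edgeR). Kcnk4, another relative, was left out by the low-count filter. With no filter its change with 30 mM was 0.85 (adjusted p = 0.344, edgeR), on a control mean of 2.79 CPM, near the floor.

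Among auxiliary subunits, Kcnip1 (ENSMUSG00000053519) encodes a calcium-binding protein that assembles with A-type pore subunits of the Kcnd family. It ranged from 4.01 to 8.73 CPM with 30 mM (median 5.97) and from 8.75 to 17.1 CPM in its controls (median 13.1). The highest ethanol well lay just under the lowest control well. This was a log2 fold change of -1.03 (SE 0.263, adjusted p = 0.00727, edgeR), on a mean raw count of 14.0. With 10 mM, Kcnip1 ranged from 3.09 to 12.3 CPM (median 8.27) against 7.96 to 14.8 CPM (median 11.1). Those groups overlapped, and the change of -0.56 (SE 0.242) had an unadjusted p of 0.0244 and an adjusted p of 0.406 in edgeR. Kcnd2, a partner of Kcnip1, had log2 fold changes of -0.51 with 30 mM (adjusted p = 0.158, edgeR) and -0.57 with 10 mM (adjusted p = 0.0887, edgeR), neither past the threshold. Kcnd3, a more abundant Kcnd member (56.4 against 17.5 CPM), changed by -0.12 with 30 mM (adjusted p = 0.556, edgeR) and 0.14 with 10 mM (adjusted p = 0.703, edgeR).

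Kcne1l (ENSMUSG00000090122), also called Kcne5 and a single-pass subunit of the KCNE family, was the only member whose change differed between the doses. It ranged from 38.0 to 62.8 CPM with 30 mM (median 48.1) and from 50.4 to 85.0 CPM in its controls (median 70.3). 3 ethanol wells lay below every control well and the other 3 lay within the control range. The log2 fold change was -0.49 (SE 0.115, adjusted p = 0.00299, edgeR). With 10 mM, Kcne1l ranged from 43.7 to 64.1 CPM (median 58.2) against 48.5 to 54.5 CPM (median 50.8), so that the ethanol wells spread to both sides of the controls. That change was 0.09 (SE 0.101, adjusted p = 0.822, edgeR), and the difference between the doses was -0.60 (SE 0.156, adjusted p = 0.0155, edgeR), with 1 of 41 members tested called (2.44%) where 3.28% of all genes were called, 2.40% of them lower.

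Kcnma1 (ENSMUSG00000063142), the BK channel and a direct target of ethanol in neurons, had overlapping levels at both doses. It ranged from 15.1 to 19.3 CPM with 30 mM (median 17.2) against 10.3 to 21.7 CPM (median 17.4), with a log2 fold change of 0.11 (SE 0.192, adjusted p = 0.787, edgeR). With 10 mM it ranged from 19.4 to 29.9 CPM (median 27.9) against 21.7 to 33.7 CPM (median 29.2), with a change of -0.12 (SE 0.138, adjusted p = 0.837, edgeR). Its auxiliary subunit Kcnmb4 had changes of 0.16 and -0.12 and was not called at either dose. Kcnma1 shares exon bases with 4930519K11Rik in GENCODE M21. In all, 20 of the 53 members share exon bases with another gene there, among them Kcna6, Kcnd3, Kcnk2, Kcnj3, Kcnj6, Kcnn1, Kcnn2, Kcnab2 and Kcnmb4, and their counts are uncertain in the same way.

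In experiment 1, cell type markers moved beside these changes. With 30 mM ethanol, 5 of 10 astrocyte markers and 6 of 9 mature oligodendrocyte markers tested were higher, while 3 of 6 mural markers (contractile cells of vessel walls), 4 of 5 fibroblast markers and 5 of 5 cycling markers were lower. Also higher were 1 of 7 oligodendrocyte precursor and 1 of 7 microglia markers. Also lower were 1 of 5 committed precursor and 1 of 6 neuron markers. Of all genes tested, 3.02% were higher and 6.65% lower. Mural markers (8 genes, none at 0) summed to between 158 and 274 CPM with 30 mM and between 494 and 661 CPM in its controls. Fibroblast markers (6 genes, none at 0) summed to between 202 and 271 CPM and between 354 and 596 CPM in the same order. Mitochondrial genes took between 3.59% and 4.79% of counts with 30 mM and between 2.94% and 3.82% in its controls. The part of these cells and of the mitochondrial share in the 7 member changes was not tested. With 10 mM, 2 of 9 mature oligodendrocyte, 1 of 10 microglia and 1 of 6 neuron markers were higher. Lower with 10 mM were 2 of 5 fibroblast and 1 of 6 neuron markers, and none of the other lists was called.

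With 10 mM ethanol, no member was called among 40 tested, where 0.657% of 13538 genes were called. In edgeR, 7 of the 40 had an unadjusted p under 0.05, as did 10.1% of all genes tested. Those lower were Kcnd2 (-0.57), the G-protein-gated Kcnj3 (-0.53), the modifying subunit Kcnf1 (-0.71), Kcnip1 (-0.56) and Kcnk1 (-0.19), and those higher were the small-conductance Kcnn1 (0.74) and the auxiliary Kcnip3 (0.22). The smallest adjusted p in edgeR was 0.0887, for Kcnd2. DESeq2 also called none, but it could not call every member. Among those described in full, it gave no adjusted p to Kcne1l, Kcnk10, Kcnma1, Kcnj16 and Kcnip1. The median log2 fold change was -0.06 over the 40 members and -0.0023 over all genes tested, with 14 positive and 26 negative.

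No member had 10 mM wells that lay wholly above or below their controls, where 0.768% of all genes tested did (0.510% above, 0.259% below). With 30 mM, 4 members did (Kcnc1 and Kcna2 above, Kcnj16 and Kcnip1 below), where 4.05% of all genes tested did (0.612% above, 3.44% below). The changes at the doses come from separate control groups, and apart from Kcne1l no difference between them passed the test. For the difference, 6 of 41 members had an unadjusted p under 0.05 in edgeR, as did 17.2% of all genes tested.

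**Figure D3:**
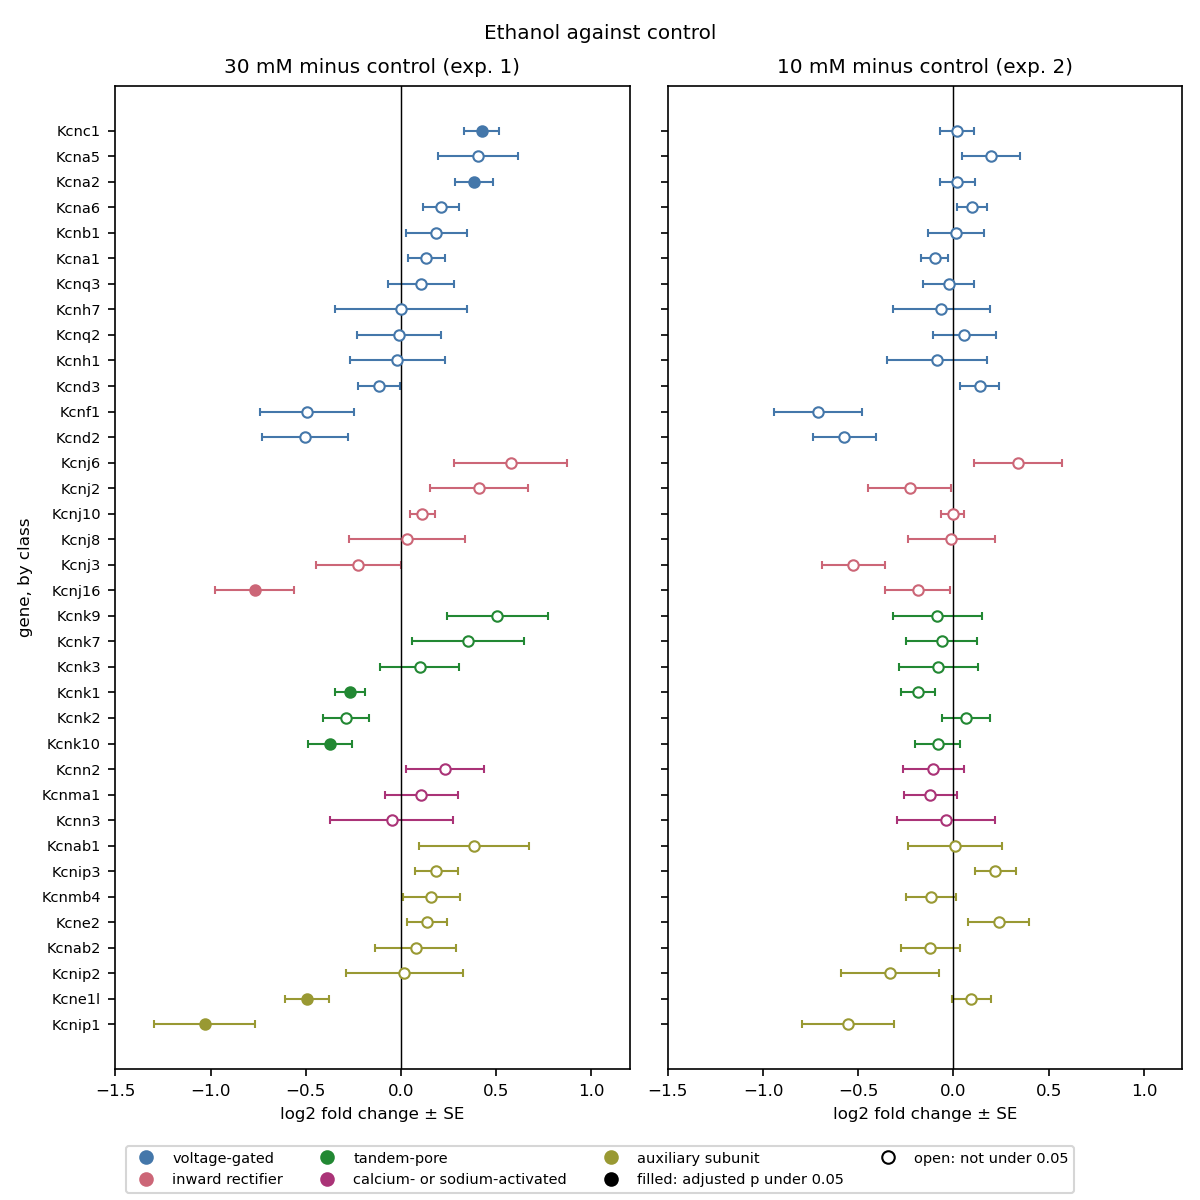
Log2 fold change with its SE for 36 members tested at both doses, with 30 mM against its controls on the left and 10 mM against its controls on the right, coloured by channel class. Filled points mark an adjusted p under 0.05, which 7 members reach with 30 mM and none with 10 mM; Kcnip1 lies farthest to the left with 30 mM at -1.03.

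Sodium pump, cotransporter, HCN, gap junction, Kir4.1-anchoring, water channel and other channel-partner genes (49 outside the Kcn family) were counted in the same fits. With 30 mM, 38 were tested, of which 5 rose and 1 fell, and with 10 mM 37 were tested and none was called. Over all genes tested, 3.02% rose and 6.65% fell with 30 mM, and 0.657% were called with 10 mM. The water channel Aqp4 rose by 0.56 (adjusted p = 4.97e-08, edgeR) and Gja1, the gap junction protein connexin 43, by 0.51 (adjusted p = 3.41e-06, edgeR). Both are also on the astrocyte marker list. Atp1b2, a beta subunit of the sodium pump, rose by 0.38 (adjusted p = 0.000508, edgeR), while Fxyd6, a regulator of the pump, fell by 0.47 (adjusted p = 3.73e-05, edgeR). Dtna, part of the complex that anchors Kir4.1 and Aqp4 at the membrane, rose by 0.31 (adjusted p = 0.00131, edgeR), and Lgi3, which associates with Kcna channels, rose by 0.36 (adjusted p = 0.0349, edgeR). Of 39 genes tested for the difference between the doses, Aqp4 (0.60) and Gja1 (0.48) were higher and Fxyd6 (-0.42) lower. Over all genes tested for this difference, 0.880% were higher and 2.40% lower. The 4 HCN channels, which pass sodium and potassium, summed to between 60.8 and 82.8 CPM with 30 mM and between 37.9 and 63.1 CPM in its controls, and none of the 3 tested was called.

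Between the control groups of the experiments, which held no ethanol, 7 members were higher and 13 lower in experiment 1. These 20 were 52.6% of the 38 members tested, where 43.6% of all genes tested were called, 21.3% higher and 22.3% lower. Tandem-pore and auxiliary subunits made up 6 of the 7 higher members, and voltage-gated pore subunits made up 8 of the 13 lower ones. Of the 14 voltage-gated members tested, 4 had positive differences and none of these was called, although Kcnh1, an ether-a-go-go channel subunit (0.54, adjusted p = 0.0553, edgeR), was called higher in 2 of 12 fits without 1 well (experiment 1 replicate 3 or experiment 2 replicate 6). The median log2 difference was -0.25 over the members and -0.01 over all genes tested.

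Among the 38 tested, the largest difference was in Kcne2, a subunit of the KCNE family best known in the brain from the choroid plexus. It was 61.6 ± 9.77 CPM in experiment 1 controls and 17.8 ± 2.17 CPM in experiment 2 controls (SD, n = 6), a log2 difference of 1.75 (SE 0.131, adjusted p = 2.16e-20, edgeR). The ranges, from 47.3 to 74.7 CPM and from 14.2 to 19.8 CPM, lay far apart. Kcnk1 was higher in experiment 1 by 0.84 (adjusted p = 1.69e-15, edgeR), Kcnk2 by 0.56, Kcne1l by 0.43, Kcnk10 by 0.34 and Kcnj10 by 0.32 (adjusted p = 1.9e-05, edgeR). Kcnip3, a calcium-binding auxiliary subunit, was higher by 0.27 with an adjusted p of 0.0489 in edgeR, a call that was lost in 7 of 12 fits without 1 well (experiment 1 replicates 1, 3 or 5 or experiment 2 replicates 1, 2, 3 or 6, adjusted p up to 0.151, edgeR), with upper-quartile scaling (0.138, edgeR), with DESeq2 (adjusted p = 0.106) and with a replicate block (0.0504, edgeR).

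Among the members tested, those lower in experiment 1 were led by Kcnk7, a tandem-pore subunit, at 7.80 ± 2.43 CPM against 14.8 ± 3.35 CPM (SD, n = 6), a log2 difference of -0.96 (adjusted p = 0.000399, edgeR). Kcnma1 differed by -0.83, Kcnq3, a subunit of the M-current channel, by -0.82, and Kcna1 by -0.79 (adjusted p = 4.04e-15, edgeR). Kcna1 was 101 ± 12.6 CPM against 170 ± 12.9 CPM (SD, n = 6). Kcna5, a delayed rectifier subunit, differed by -0.70, Kcnd2 by -0.68, Kcnj3 by -0.60, the auxiliary Kcnab2 by -0.54 and the small-conductance Kcnn2 by -0.52, all called in edgeR. The order of the abundant members therefore changed between experiments. In experiment 1 controls every Kcnk1 value (from 124.5 CPM) lay above every Kcna1 value (up to 118.0 CPM), and in experiment 2 controls every Kcna1 value (from 155.7 CPM) lay above every Kcnk1 value (up to 91.6 CPM).

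**Figure D4:**
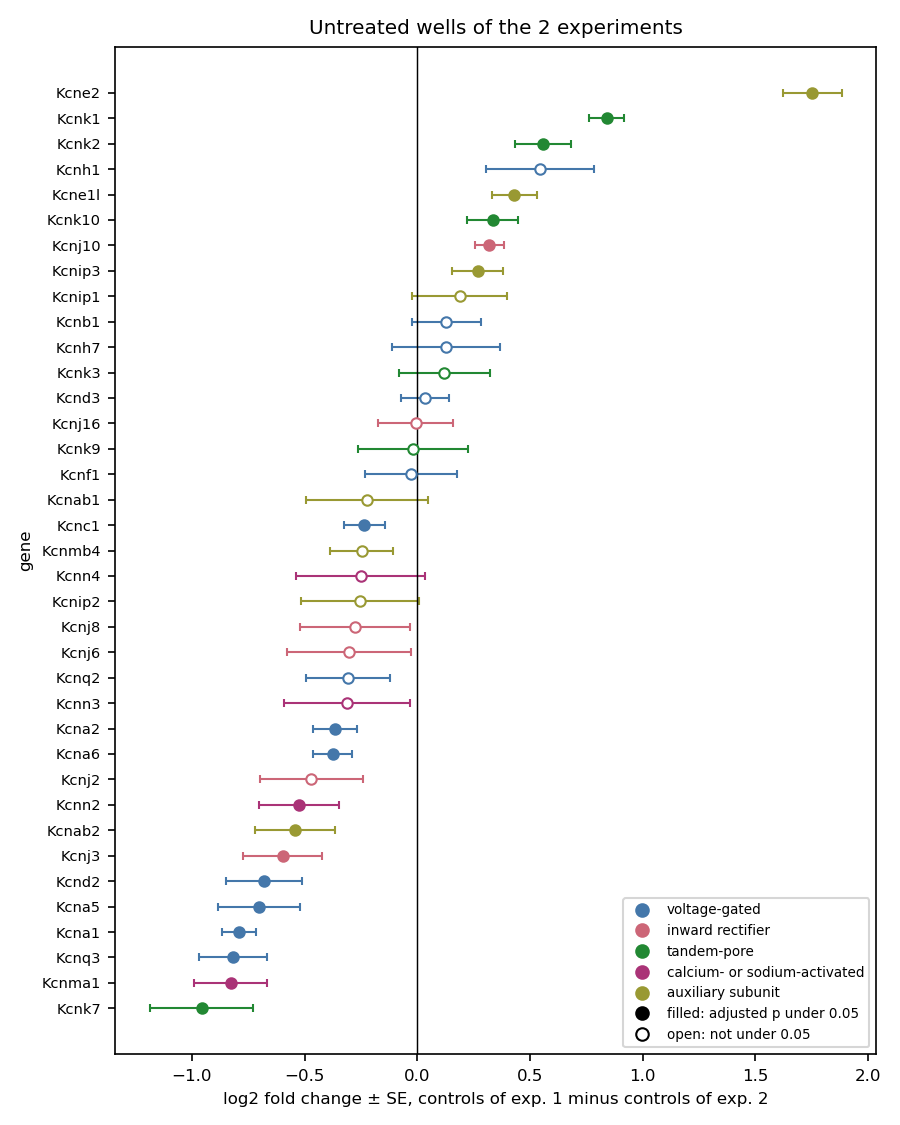
Log2 fold change with its SE between the control wells of experiment 1 and experiment 2 for 37 members tested, in order of size and coloured by channel class, with filled points for an adjusted p under 0.05. Kcne2 lies farthest to the right at 1.75 and Kcnk7 farthest to the left at -0.96, and all 7 filled voltage-gated points shown lie left of zero.

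Among the control wells, 3 members (Kcnj10, Kcnk1 and Kcne2) lay wholly above and 5 tested members (among them Kcna1, Kcnq3, Kcnma1 and Kcna5) wholly below in experiment 1, where 18.9% of all genes tested separated in this way (11.2% above, 7.66% below). Kcnv1, a modifying subunit that the low-count filter left out of this comparison, also lay wholly below, at 2.18 ± 0.99 CPM against 8.40 ± 2.32 CPM (SD, n = 6). With no filter its log2 difference was -1.92 (adjusted p = 4.84e-06, edgeR). Its experiment 1 mean lay at the floor of 3 counts (between 1.77 and 2.36 CPM in those wells), so this size cannot be set against that of Kcne2. Kcnv1 was also called lower in the joint fit of 24 wells and in 7 of 12 fits without 1 well. Microglia markers (12 genes, none at 0) summed to between 203 and 364 CPM in experiment 1 controls and between 2758 and 3322 CPM in experiment 2 controls, and 10 of 10 tested were lower in experiment 1. Mural markers summed to between 494 and 661 CPM and between 95.9 and 124 CPM in the same order, with 3 of 6 higher. Of 10 astrocyte markers, 7 were higher and 2 lower. Oligodendrocyte precursor markers (7 genes, none at 0) summed to between 886 and 1051 CPM and between 1061 and 1169 CPM, with 6 of 7 lower. Neuron markers (9 genes, none at 0) summed to between 323 and 412 CPM and between 444 and 505 CPM, with 2 of 7 lower. Also lower were 4 of 5 fibroblast, 1 of 9 mature oligodendrocyte and 1 of 5 committed precursor markers. Of 5 cycling markers 2 were higher, and of 3 endothelial markers 1 was higher and 1 lower. Mitochondrial genes took between 2.94% and 3.82% of counts in experiment 1 controls and between 2.06% and 2.39% in experiment 2 controls, and between 24319 and 24506 genes against between 25417 and 26242 were detected. The part of these cells and library measures in the member differences was not tested.

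The low-count filter left 11 members out of every comparison, and these included Kcnab3, Kcnj4, Kcnb2, Kcnip4, Kcnt2, Kcnk5, Kcnh2, Kcnt1, Kcnd1 and Kcnk4. With no filter, the only one of the 11 called in any comparison was Kcnh2, the ERG channel subunit, which was higher in experiment 1 than in experiment 2 controls (5.71 ± 1.91 against 2.14 ± 1.23 CPM, SD, n = 6, log2 difference 1.39, adjusted p = 0.00581, edgeR) with overlapping wells. The 31 members tested and not called with 30 mM had log2 fold changes between -0.51 (Kcnd2) and 0.58 (Kcnj6, a G-protein-gated inward rectifier).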

How the data were processed

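Per the labels' protocols, RNA from 24 wells was sequenced by 3′ tag sequencing with single-end reads of 100 bases. The authors deposited raw counts per gene, with no normalization. The submitters' processing notes name cutadapt 1.18, STAR and the build GRCm39, while the counter, annotation release, use of strand and removal of duplicates are not given in the sources used here. Symbols were matched by identifier for 52083 of 55359 genes (94.1%).

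Each comparison was tested with edgeR's quasi-likelihood test (edgeR 4.0.16, R 4.3.3) with TMM factors, the filterByExpr filter (minimum count 10) and Benjamini-Hochberg adjustment over all genes tested, and an adjusted p under 0.05 was a call. The 2 groups compared entered each fit, and all 24 wells entered the fit of the difference between doses. A log2 fold change is ethanol minus control, 30 mM change minus 10 mM change, or experiment 1 minus experiment 2. The test was checked on simulated counts at both doses. At 30 mM it recovered 45% of 200 changed genes at a log2 change of 0.5 and 92.5% at 1, among 13224 and 13222 genes, and at 10 mM 52% and 94.5%, among 13533 and 13528 genes. False calls were 6.25% and 5.13% of calls at 30 mM and 4.59% and 3.57% at 10 mM. Changed genes were drawn only from those with a mean count of at least 10 in the wells compared, so these rates do not cover members with fewer counts. The simulation gave every gene the same spread at both doses, near that of the 30 mM fit and above that of the 10 mM fit. The data's common coefficient of variation between wells, beyond counting, was 8.08% in the 30 mM fit and 5.62% at 10 mM. No 2 wells of a group agreed within sampling noise (chi-square between 1.07 and 2.88 per degree of freedom).

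The members and lists were chosen with earlier results of these data known. Described in full were members called with ethanol at either dose or for the difference, the most abundant member of each class, and Kcnj10, Kcnj16 and Kcnma1. Named for the control groups were up to 10 called members each way with the largest changes. A few members are counted but not reported by name here or drawn in the plots. Other members named, such as those at an unadjusted p under 0.05, were chosen after their values were seen. Alternatives were RLE and upper-quartile scaling, no filter, DESeq2 1.42.0, a joint fit, a replicate block, other thresholds and leaving out each well. The notes name GRCm39, whereas the sequences and coordinates printed here come from RefSeq on GRCm38.p6 and are not tied to read positions.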

Additional observations from a re-analysis of the deposited data

Results flagged for a closer look

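The Kcna2 value of 89.0 CPM in replicate 1 of the 30 mM wells stood apart from the other 5 wells of its group by more than the 95% limit of Dixon's test. The Kcnj16 value of 24.4 CPM in replicate 1 of the experiment 1 controls stood apart from its group in the same way. Of 40 groups of 6 wells examined (10 members in 4 groups), 2 had such a well, and chance gives about 2. The change of Kcne1l differed between the doses by -0.60 on the log2 scale in a test of the difference itself, with dose and experiment confounded.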

How the results depend on the processing

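With 30 mM ethanol, 4 members were called at an adjusted p under 0.01, and between 5 and 8 when 1 well was left out. DESeq2 called 5, upper-quartile scaling 6 and the joint fit of 24 wells 8. The inward rectifier Kcnj12, which the filter left out of the main 30 mM fit, was called higher in the joint fit. It was also called higher without 30 mM replicate 3 or control replicates 4 or 6. With no filter its change was 0.91 (adjusted p = 0.118, edgeR). Without replicate 1 of the 30 mM wells, whose mature oligodendrocyte markers were highest, 6 were called, of which 5 were among the 7. With 10 mM, 1 member (Kcnd2, lower) was called at an adjusted p under 0.1, and between 0 and 1 without 1 well, again Kcnd2, without 10 mM replicate 5. For the difference between the doses, 2 members were called with upper-quartile scaling and 2 at an adjusted p under 0.1, 0 at 0.01, and between 1 and 2 without 1 well. The second was Kcnc1 with upper-quartile scaling (adjusted p = 0.0262, edgeR) and without 10 mM replicate 6 (adjusted p = 0.0486, edgeR). Medians of the members with 1 well left out ran from -0.0906 to -0.0012 with 10 mM, from 0.094 to 0.20 for the difference and from -0.32 to -0.16 between controls. The median for the difference was 0.23 with upper-quartile scaling and 0.10 with no filter. Small changes that turned sign were Kcnj10 with 10 mM (0.019 with no filter, 0.0054 in the joint fit, -0.033 to 0.036 without 1 well), Kcnc1 (-0.044 to 0.077) and Kcna2 (-0.035 to 0.069) with 10 mM, and Kcnma1 with 30 mM (-0.0067 to 0.20). Between controls, the call was lost for Kcnn2 without experiment 1 replicate 3 and for Kcnk10 without experiment 2 replicate 5. The call of Kcnc1 between controls (-0.23, adjusted p = 0.0295, edgeR) was lost with no filter, with DESeq2 and in the joint fit. It was also lost without experiment 1 replicates 2, 5 or 6 or experiment 2 replicates 1 or 4. In DESeq2, Kcnip1 at 30 mM got no adjusted p (unadjusted p = 0.000542, log2 fold change -1.03). Nor did Kcne1l, Kcnk10, Kcnma1, Kcnj16 and Kcnip1 at 10 mM, or Kcnj16 and Kcnip1 for the difference, so DESeq2 could not call them there. The cause of these changes was not tested.

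Replicate numbers did not pair the wells: deviations of same-numbered wells correlated between -0.17 and 0.23 in experiment 1, where 1 of 6 matched its own number best, and between -0.039 and 0.040 in experiment 2. With a replicate block, 7 members were called with 30 mM, 0 with 10 mM, 1 for the difference and 19 between controls, where Kcnip3 was not called.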
